A study of Mus musculus with 6 samples.

Results

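The genes described here are 10 regulators of the step from the G1 phase of the cell cycle into S phase (G1/S). They comprise the D-type cyclins Ccnd1, Ccnd2 and Ccnd3, the E-type cyclins Ccne1 and Ccne2, the cyclin-dependent kinase (CDK) inhibitors Cdkn1a, Cdkn1b and Cdkn2b, the transcription factor E2f1 and the phosphatase Cdc25a. They were found by exact gene symbol among the 25330 genes of each deposited table, and 10 of 10 were present. The set was chosen by measured values of the same comparison that is described below, in which Ccne1 was known to be among the largest decreases. The values of these 10 genes are therefore given as a description, without a test.

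The study asked how liver cells respond to ischemia-reperfusion injury, and the RNA-seq libraries came from AML12 cells, a mouse hepatocyte line of wild-type genotype on the labels, derived from a mouse that carried a transgene for human TGF-alpha. The 3 Control libraries were from cells in normoxia at 21% O2, and the growth medium was DMEM/F12 with 10% fetal bovine serum, an insulin, transferrin and selenium supplement (ITS) and dexamethasone. The 3 hypoxia-reoxygenation (H/R) libraries were from cells changed to medium without serum and glucose, held at 1% oxygen for 6 h and then reoxygenated for 2 h. Loss of oxygen, serum and glucose, the change of medium and the reoxygenation thus fell together. Their shares in any difference between the groups cannot be told apart. Whether the H/R medium held ITS and dexamethasone, and which medium was used in reoxygenation, is not stated.

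Entry into S phase is driven by cyclins that activate CDKs. D-type cyclins with CDK4 or CDK6 and E-type cyclins with CDK2 phosphorylate the retinoblastoma protein and its relatives, which releases E2F factors to transcribe the genes of DNA replication, cyclin E and E2F1 themselves among them. Inhibitors of the CIP/KIP class bind cyclin-CDK complexes, inhibitors of the INK4 class bind CDK4 and CDK6, and CDC25A removes inhibitory phosphates from CDK2. Adult hepatocytes in the liver rest outside the cycle and re-enter it after tissue loss, whereas AML12 cells proliferate in culture.

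Promoter sequence was taken from RefSeq (build GRCm38.p6), which gave windows of 250 bases before and 50 bases after a start site. A window was matched for 7 of the 10 genes (Ccnd3, Ccne1, Cdkn1a, Cdkn1b, Cdkn2b, E2f1 and Cdc25a), with 9 windows in all. The 250 bases before the start are shown for Ccne1, which had the lowest H/R level relative to Control of the 10 genes, for Cdc25a, whose window held E2F core matches, and for the more upstream of the start sites of Cdkn1a, which had the highest H/R level relative to Control. Each is written 5′ to 3′ on the strand of the gene. Capitals mark matches, on either strand, to the GC box GGGCGG, to an E2F core (TTNNCGC with either of the strong bases, cytosine or guanine, at each N) and to a pair of the letters CATG, the centre of many p53 binding elements, at the spacing of such an element (CATGNNNNNNCATG). The last pattern was added after the Cdkn1a sequence had been seen.
Ccne1, chr7:38107491-38107740, minus strand: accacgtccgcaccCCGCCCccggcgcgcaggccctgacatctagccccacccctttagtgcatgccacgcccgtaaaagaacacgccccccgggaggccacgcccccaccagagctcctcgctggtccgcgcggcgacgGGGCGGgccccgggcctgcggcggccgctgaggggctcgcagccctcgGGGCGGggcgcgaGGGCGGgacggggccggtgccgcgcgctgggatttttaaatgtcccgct
Cdc25a, chr9:109875329-109875578, plus strand: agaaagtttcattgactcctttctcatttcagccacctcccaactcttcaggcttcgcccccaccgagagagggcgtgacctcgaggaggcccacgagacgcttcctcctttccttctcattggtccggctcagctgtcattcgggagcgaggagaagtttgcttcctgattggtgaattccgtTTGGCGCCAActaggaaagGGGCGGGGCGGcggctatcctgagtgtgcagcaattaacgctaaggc
Cdkn1a, chr17:29090729-29090978, plus strand: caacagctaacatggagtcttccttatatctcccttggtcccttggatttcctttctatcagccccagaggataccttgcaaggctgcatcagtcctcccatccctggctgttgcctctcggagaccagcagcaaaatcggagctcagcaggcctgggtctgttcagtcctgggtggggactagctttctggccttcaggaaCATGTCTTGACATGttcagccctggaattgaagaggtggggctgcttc

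The Ccne1 window had a GC content of 76%, with 41 CpG dinucleotides, 4 GC boxes and no match to the E2F core letters. Over all 32851 windows the median GC content was 52.7% and 35.7% held a GC box. Among the 11769 windows of tested genes, which include these 9, 62.2% held a GC box. The Cdc25a window (56.7% GC) was the 1 of the 9 that held an E2F core, with 2 matches that overlapped on opposite strands between 66 and 57 bases before the start, and a core of this kind was found in 9.57% of all windows and in 16.8% of those of tested genes. It also held 2 overlapping GC boxes and 2 CCAAT boxes, and CCAAT was found in 37.4% of all windows and in 38.1% of those of tested genes. The upstream Cdkn1a window (54.7% GC) had 2 CpG dinucleotides and no GC box. It held 1 pair of p53 core letters at 48 to 35 bases before the start, a pattern present in 0.712% of all windows and in 0.314% of those of tested genes. The other Cdkn1a start lay 2790 bases downstream, and its window had 23 CpG dinucleotides, 2 GC boxes and no such pair. The Cdkn1b window held 1 GC box and 3 CCAAT boxes, and the Cdkn2b window held 1 GC box and 2 overlapping matches to the cAMP response element letters TGACGT, which 7.51% of all windows and 12% of those of tested genes hold. The start site of E2f1 in this table lay 466 bases inside the gene as deposited, so that its window (77.3% GC, 5 GC boxes and 1 match to TGACGT) was not upstream of the whole gene. A match describes letters only.

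Total counts lay between 20438746 and 21854790 per library. Counts were scaled by the trimmed mean of M values (TMM) to a common library size, and these normalized counts are the values given per library. Of the 25330 genes, 14020 had enough counts to be tested, and all 10 of the genes described here were among them. The median log2 fold change over the tested genes was -0.01, and the middle 90% of tested genes lay between -0.95 and 0.92. With library totals alone in place of TMM the median moved to -0.12. No library was a copy of another, since chi-square values of replicate pairs were 2.19 to 16.2 times their degrees of freedom. Pairs with Control replicate 1 were at 15.5 and 16.2, Control replicates 2 and 3 at 5.6, and the H/R pairs at 2.19 to 3.35. The labels do not say that replicates came from separate cultures, so the spread between them may be technical. Of 10 hepatocyte markers 7 were tested, of which 5 fell and 2 rose by the test named below. The transcription factor Hnf4a fell from 2912 ± 104 to 2187 ± 19.3 normalized counts (log2 fold change -0.41), and the plasma protein genes Alb (-2.85), Ttr (-3.07), Afp (-2.03) and Apoa1 (-0.99) also fell. Alb lay between 129 and 513 in Control and lost its call without Control replicate 3 or without any 1 of the H/R libraries, and Apoa1 lost its call without Control replicate 1, Control replicate 3 or H/R replicate 1. The 2 that rose were the keratins Krt8 and Krt18 (0.66 each). Asgr1 and Tat had at most 2 counts in any library and Cps1 had counts in Control replicate 1 alone (18 counts). The summed level of the 10 lay between 84124 and 89144 in Control and between 133029 and 134926 in H/R, nearly all of it from these keratins. Of 12 markers of other liver and blood cells, 7 had at most 3 counts in every library. The summed level of the 12 lay between 17894 and 20122 in Control and between 36585 and 38849.6 in H/R, nearly all of it from the biliary keratin Krt19 (18746 ± 1187 in Control and 37536 ± 1161 in H/R, SD, n = 3). The part of these markers in the values below was not tested.

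Across the 10 genes, both E-type cyclins, Ccnd1, E2f1 and Cdc25a were lower in H/R, and the inhibitors Cdkn1a and Cdkn2b were higher. Ccne1 was 6.23-fold lower and Ccne2 2.37-fold lower, and Cdkn1a was 1.97-fold higher. The median log2 fold change of the 10 was -0.33. By the rule of an adjusted p under 0.05 alone, 3 were higher and 5 were lower, where 31.0% of all tested genes were higher and 31.8% lower. With a fold change of at least 2 as well, 0 were higher and 2 were lower (Ccne1 and Ccne2), where 4.25% of all tested genes were higher and 4.27% lower. In 9 of 10 the normalized counts of the groups did not overlap, as for 65.9% of tested genes. Since the genes were chosen on this comparison, these counts describe the choice.

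**Figure D1:**
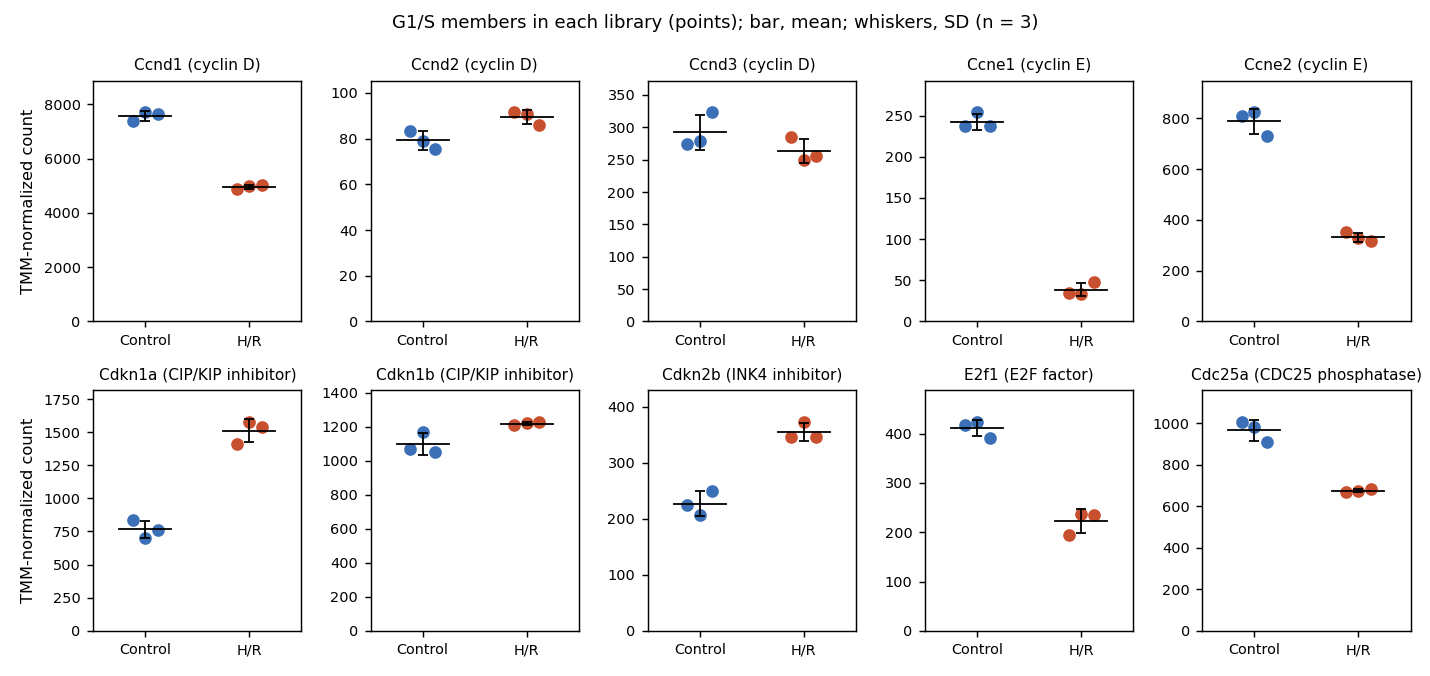
TMM-normalized counts of the 10 genes in each of the 6 libraries, with 1 panel per gene and a vertical axis from 0 in each. Points are libraries, horizontal bars are group means and whiskers are the SD of 3 libraries. The Ccne1 points lie between 237 and 254 in Control and between 33.4 and 48 in H/R, and the Ccnd3 points of the groups overlap.

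Ccne1 encodes cyclin E1, an activating partner of CDK2. It lies on chromosome 7, from 38097984 to 38107534 on the minus strand of GRCm38, with no exon base shared with another gene of the tables. In Control its normalized counts were 237, 254 and 237, and in H/R they were 34.5, 33.4 and 48 (here and below in order of replicate number, from 1 to 3). The groups were far apart, with no H/R library near the range of the Control libraries. The raw H/R counts were 32, 31 and 48, so relative counting error was larger there than in Control. The mean was 243 ± 9.59 in Control and 38.6 ± 8.11 in H/R (SD, n = 3). Its log2 fold change was -2.64 with a standard error (SE) of 0.141, which does not allow for the choice of the gene. This was the 11th lowest log2 fold change of the 14020 tested genes, so that 0.0713% of them were lower. On the log2(RPKM + 1) scale, where RPKM is reads per kilobase of gene, scaled to the library total, the difference was -1.72, since the H/R level was below 1 RPKM.

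Ccne2 encodes cyclin E2, the other partner of CDK2 (chromosome 4, 11191351 to 11204779, plus strand). The Control libraries held 809.6, 823 and 731 normalized counts of Ccne2 and the H/R libraries 351, 330 and 316. All H/R libraries were below all Control libraries, at a mean of 332 ± 17.8 against 788 ± 50 (log2 fold change -1.25, SE 0.0696). Of its exon length, 17.4% is shared with exons of Ints8 on the opposite strand, itself 340.3 ± 4.52 in Control and 241 ± 12 in H/R. Some genes lie at least 95% inside the exons of another gene. Their median ratio of reads per length to that gene was 0.957 over 209 pairs on opposite strands. On the same strand it was 0.329 over 290 pairs, and the reason for this difference was not tested. The deposited counts thus appear not to separate reads of opposite strands. Reads of Ccne2 and Ints8 in the shared stretch may therefore not be told apart.

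Per length, the E-type cyclins differed between the groups in their balance as well as in their sum. Levels between genes are compared as TMM-scaled RPKM. The length is that of all annotated exons of a gene together, so that orders, shares and ratios between genes depend on the annotation. Together, Ccne1 and Ccne2 summed to 15.2, 15.6 and 14.1 RPKM in Control and to 5.36, 5.06 and 5.12 in H/R. Ccne1 made up 27.7%, 28.8% and 29.9% of that sum in the Control libraries and 11.4%, 11.7% and 16.6% in the H/R libraries. The share was lower in every H/R library, and H/R replicate 3 stood above the other two.

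Ccnd1 encodes cyclin D1, the G1 cyclin whose transcription follows growth factor signals (chromosome 7, 144929931 to 144939925, minus strand). Its normalized counts were 7369, 7703 and 7649 in Control and 4878, 4987 and 5022 in H/R. The groups were tight and did not overlap, with means of 7574 ± 179.6 and 4962 ± 75 (log2 fold change -0.61, SE 0.041, or 1.53-fold lower). Exons of Oraov1 on the opposite strand cover 23.4% of its exon length, and Oraov1 held 3732 ± 114 in Control and 2766 ± 26.2 in H/R.

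The other D-type cyclins were low and differed little. Ccnd2 (chromosome 6, 127125162 to 127152193, minus strand), which encodes cyclin D2, held 83.3, 79 and 75.3 normalized counts in Control and 91.5, 90.6 and 85.9 in H/R. The H/R libraries of Ccnd2 were all above Control, but the gap between the nearest libraries was smaller than the range within either group, and the log2 fold change of 0.17 had an SE of 0.148. Ccnd3 (chromosome 17, 47505051 to 47599691, plus strand), for cyclin D3, held 274, 279 and 323 in Control and 285, 250.2 and 256 in H/R. These groups overlapped (log2 fold change -0.15, SE 0.0922), and Ccnd3 was counted as lower only with upper quartile scaling or library totals alone. Of the exon length of Ccnd2 7.86% and of Ccnd3 4.11% is shared with genes on the opposite strand. For Ccnd3 that gene is Bysl, with a log2 fold change of -0.47.

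Per length, Ccnd1 made up nearly all of the cyclin D message, at 97.5% ± 0.146 of the RPKM of the 3 genes in Control and 96.4% ± 0.259 in H/R. The exon lengths used were 4709 bases for Ccnd1, 9409 for Ccnd2 and 8775 for Ccnd3. These shares depend on the lengths, and the SD covers the spread of libraries alone. The sum of the 3 was 78 ± 1.86 RPKM in Control and 51.7 ± 0.647 in H/R. The ratio of D-type to E-type RPKM was 5.01, 5.07 and 5.6 in Control and 9.51, 10.3 and 10.2 in H/R, higher in every H/R library.

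Cdkn1a encodes p21, a CIP/KIP inhibitor of CDK2 complexes and a target of p53 (chromosome 17, 29090979 to 29100722, plus strand). It held 835, 703 and 758 normalized counts in Control and 1414, 1578 and 1538 in H/R. All H/R libraries lay well above Control, and the means were 765 ± 66.3 and 1510 ± 85.4 (log2 fold change 0.98, SE 0.0593). At 1.97-fold it lay just below the 2-fold limit, and without Control replicate 1 (1.05) or without H/R replicate 1 (1.03) its log2 fold change was above 1.

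Cdkn1b encodes p27, the CIP/KIP inhibitor that is typical of resting cells and is controlled largely through degradation of its protein (chromosome 6, 134920401 to 134925513, plus strand). Control held 1071, 1171 and 1052 normalized counts of Cdkn1b and H/R 1208, 1219.8 and 1229. The groups did not overlap, yet the step from the highest Control to the lowest H/R library was smaller than the spread within Control. The log2 fold change of 0.15 (SE 0.0529) became 0.0469 with library totals alone. Cdkn1b is among the 3 genes counted above as higher, a count that describes the choice. It was not so counted with library totals, upper quartile scaling, either RPKM scale, or without Control replicate 1 or Control replicate 3.

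Cdkn2b encodes p15, an INK4 inhibitor of CDK4 and CDK6 (chromosome 4, 89306289 to 89311032, minus strand). The Control libraries held 225, 206 and 250.4 normalized counts and the H/R libraries 345, 373 and 345. Every H/R library was higher, with means of 227 ± 22.4 and 354 ± 16.4 (log2 fold change 0.64, SE 0.0903, or 1.56-fold). No exon of the 3 inhibitors is shared with another gene of the tables.

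The balance between inhibitor and cyclin messages was also compared. Cdkn1a over Cdkn1b was 1.6, 1.23 and 1.48 in Control and 2.4, 2.65 and 2.56 in H/R, per length. The sum of Cdkn1a and Cdkn1b over the sum of Ccne1 and Ccne2 was 1.91, 1.73 and 1.92 in Control and 7.95, 9.14 and 8.88 in H/R. Both ratios were higher in every H/R library than in any Control library. They are ratios of messages, and protein was not measured in these data.

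E2f1 encodes an activating E2F factor and is itself an E2F target (chromosome 2, 154559407 to 154569892, minus strand). It held 417, 424 and 392 normalized counts in Control and 194, 238 and 235 in H/R. The groups were apart, with means of 411 ± 17.1 and 222 ± 24.7 (log2 fold change -0.88, SE 0.089, or 1.85-fold lower). Cdc25a, the phosphatase gene (chromosome 9, 109875579 to 109893895, plus strand), held 1006, 980.2 and 907 in Control and 669, 672 and 681 in H/R. The H/R libraries of Cdc25a were close together and all below Control, at 674 ± 6.07 against 964 ± 51.4 (log2 fold change -0.52, SE 0.0579, or 1.43-fold lower). Neither gene shares exon bases with another gene of the tables.

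**Figure D2:**
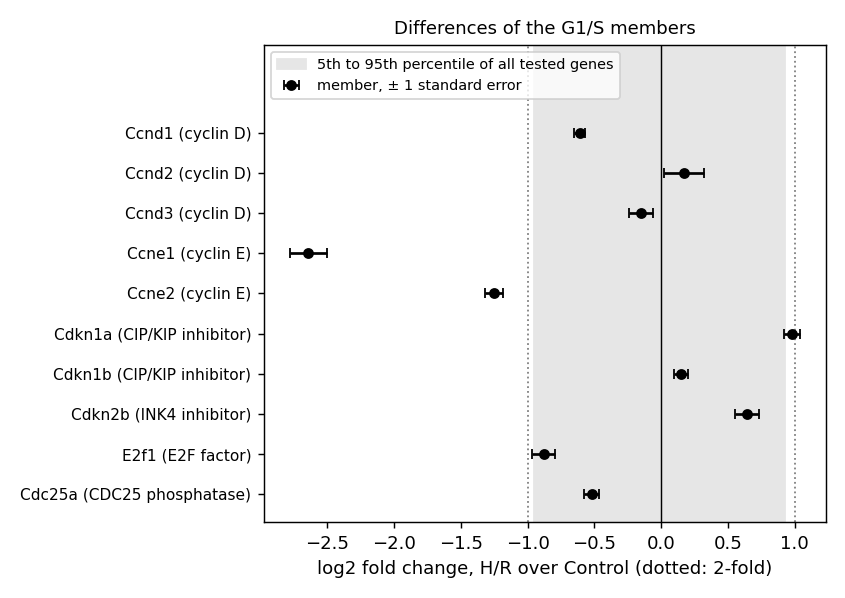
Log2 fold change of H/R over Control for each of the 10 genes, with whiskers of 1 SE. The grey band spans the 5th to 95th percentile of all tested genes (-0.95 to 0.92) and dotted lines mark 2-fold. Ccne1 (-2.64), Ccne2 (-1.25) and Cdkn1a (0.98) lie outside the band.

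In order of level per length, Control cells held 76 ± 1.8 RPKM of Ccnd1, then 16.3 ± 1.41 of Cdkn1a and 11.4 ± 0.668 of Cdkn1b. Ccne2 followed at 10.7 ± 0.676, Cdkn2b at 7.71 ± 0.759, E2f1 at 6.16 ± 0.256 and Cdc25a at 5.68 ± 0.303. Ccne1 came next at 4.31 ± 0.17, before Ccnd3 at 1.57 ± 0.146 and Ccnd2 at 0.398 ± 0.0201. Neighbours whose Control libraries overlapped were Cdkn1b with Ccne2 and E2f1 with Cdc25a. In H/R the first places were kept by Ccnd1 (49.8 ± 0.753), Cdkn1a (32.1 ± 1.81) and Cdkn1b (12.7 ± 0.108). Cdkn2b (12 ± 0.557) was next and overlapped with Cdkn1b, and Ccne2 (4.49 ± 0.24) was behind it. Cdc25a (3.97 ± 0.0357) and E2f1 (3.33 ± 0.371) followed without overlap, and Ccne1 (0.686 ± 0.144) passed from above Ccnd3 to below it (1.42 ± 0.102). That change of place depends on the exon lengths used, 8775 bases for Ccnd3 and 2662 for Ccne1. In normalized counts Ccnd3 was above Ccne1 in both groups (292 against 243 in Control, 264 against 38.6 in H/R). Ccnd2 remained the lowest at 0.449 ± 0.0151.

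**Figure D3:**
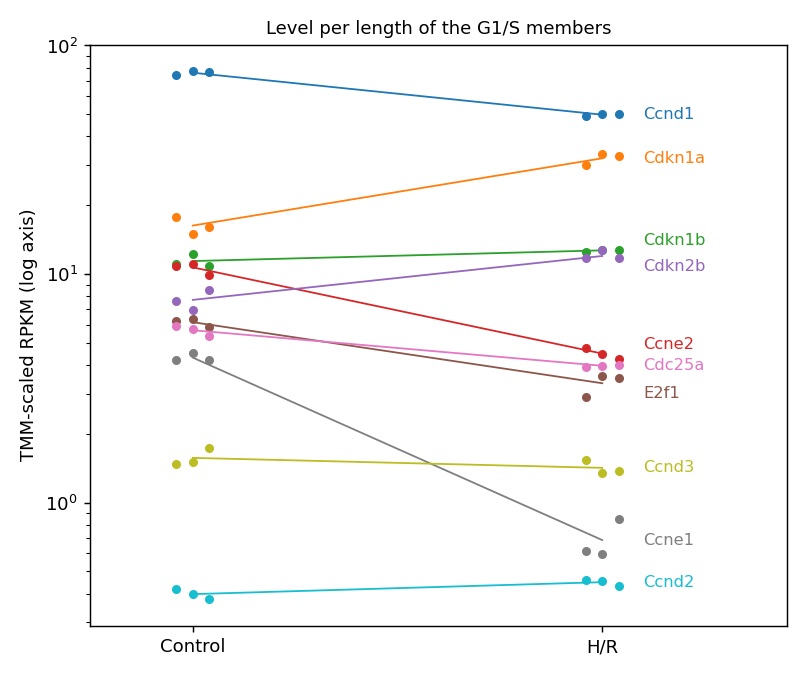
Level per length of the 10 genes as TMM-scaled RPKM on a log axis, with a point per library and a line between the group means. Ccne1 crosses Ccnd3 between Control (4.31) and H/R (0.686), Cdkn2b crosses Ccne2, and Ccnd1 is highest in both groups. Length is that of all annotated exons of a gene, and the crossing of Ccne1 and Ccnd3 is not seen in normalized counts.

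In the 3′ untranslated regions (UTRs) of GENCODE M21, taken from the transcript with the longest coding sequence, the 10 genes differed widely. The letters TTATTTA, the core letters of AU-rich decay elements, occurred in 4 of them, 3 times in Ccne2, 3 times in E2f1, 2 times in Cdkn1a and 1 time in Cdkn1b. Among tested genes with a 3′ UTR, 24.3% of 10998 held them. The shorter ATTTA occurred at 5.3 per kb in Cdkn2b and 3.79 per kb in Ccne2 and at 0 in the 531 bases of Ccne1, with a median of 1.21 per kb over the tested genes. Genes with TTATTTA were thus found among those lower in H/R and among those higher.

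The genes whose profile over the 6 libraries was most like that of Ccne1 were sought among 11420 tested genes with a mean of at least 50 normalized counts. Likeness was the root mean square difference in log2 level after each gene was centred on its Control mean. The nearest were Fgf1, a fibroblast growth factor (0.133), RP23-276M23.6 (0.19), Pik3r3, a regulatory subunit of PI3-kinase (0.19), the chemokine Cxcl5 (0.214) and Slfn9 (0.243). Fgf1 held 258, 237 and 279 normalized counts in Control and 39.9, 41 and 50 in H/R, so its groups too were far apart. RP23-276M23.6 shares exons with Pik3r3, so these are not separate measurements. The 10 genes described here were left out of the search.

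The other genes of the pathway were not chosen as members and were tested, and over all tested genes the shares were 31.0% higher and 31.8% lower. Their lists were written with earlier results of these data known, so the counts per list describe and are no separate support. Of 6 genes for the G1 kinases and the kinase that activates them, 2 rose, 1 fell and 3 did not pass the quasi-likelihood test of edgeR, Benjamini-Hochberg adjusted over all tested genes (median log2 fold change -0.03). Cdk2, the partner of cyclin E, held 794, 779 and 791 normalized counts in Control and 288, 312 and 292 in H/R. The Cdk2 groups were far apart (log2 fold change -1.41, SE 0.0676, adjusted p = 4.98e-19). The kinases of cyclin D had a log2 fold change of -0.06 (Cdk4, adjusted p = 0.222) and 0.38 (Cdk6, adjusted p = 1.77e-08). For Cdk4, 18.6% of the exon length is shared with Tspan31, and the log2 fold change of Cdk4 was -0.169 with library totals alone (adjusted p = 0.00187). Mnat1, a subunit of the CDK-activating kinase, rose by 0.68 (adjusted p = 7.61e-14).

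Of the 4 other CDK inhibitor genes in the tables, Cdkn2c (p18, an INK4 inhibitor) fell from 492 ± 35.9 to 206 ± 18.3 normalized counts (log2 fold change -1.25, adjusted p = 1.36e-14), opposite to Cdkn2b of the same class. The other 3 (Cdkn2a, which encodes p16 and ARF, Cdkn2d and Cdkn3) did not pass, and Cdkn3 did so without H/R replicate 2 (log2 fold change -0.648). Cdkn1c was listed as well but was not found by that symbol among the 25330 genes. Thus of the 4 INK4 genes 1 was higher, 1 fell and 2 did not pass.

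Among 12 genes of the retinoblastoma (pocket protein) family and the other E2F and DP factors, 6 rose, 4 fell and 2 did not pass (median 0.25). E2f8, an atypical E2F that represses transcription, fell from 1699 ± 9.87 to 659 ± 32.6 (log2 fold change -1.37, adjusted p = 1.35e-21). Tfdp1, the DNA-binding partner of E2F1, fell by 0.93 on the log2 scale (adjusted p = 2.96e-19). E2f1 itself was at -0.88. E2f7, the atypical relative of E2f8, rose by 0.32 (adjusted p = 1.68e-05). E2f2 and E2f3, activating E2F factors like E2f1, rose by 0.36 (adjusted p = 0.000401) and 0.34 (adjusted p = 1.1e-05). On either RPKM scale E2f2 did not pass. The pocket protein gene Rbl1 (p107) fell by 0.80 (adjusted p = 3.46e-13) while Rb1 rose by 0.47 (adjusted p = 1.23e-05). Rbl2 (p130) was at 0.11 (adjusted p = 0.175), with 21% of its exon length shared with other genes. E2f5, an E2F of the repressing kind, rose by 0.78 (adjusted p = 8.7e-06). Exons shared with opposite-strand genes make up 14.9% of the exon length of Rb1 and 11.2% of that of E2f8.

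Of 12 genes for the turnover of cyclin D, cyclin E, p27 and CDC25A protein, 4 rose, 4 fell and 4 did not pass (median 0.02). Skp2, the F-box protein that marks p27 for degradation, fell from 386 ± 7.91 to 198 ± 20.1 (log2 fold change -0.96, adjusted p = 2.28e-11), and its log2 fold change was -1.04 without H/R replicate 2. Fbxw7, which marks cyclin E, was at 0.15 (adjusted p = 0.153). Ambra1, which directs degradation of D-type cyclins, rose from 775 ± 46.9 to 1333 ± 25.5 (log2 fold change 0.78, adjusted p = 1.59e-14). Fbxw11, a receptor for CDC25A, rose by 0.40 (adjusted p = 9.07e-08), and Rbx1, the RING subunit of these ligases, fell by 0.47 (adjusted p = 6.25e-09).

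Of 15 other cyclins, 8 rose, 4 fell and 3 did not pass (median 0.28). Ccng2, an atypical cyclin linked to arrest of the cycle, held 160, 160 and 179.8 normalized counts in Control and 1146, 1157 and 1220.2 in H/R. It was 7.04-fold higher (log2 fold change 2.82, adjusted p = 5.66e-27), against 6.23-fold lower for Ccne1. Ccnl1, a cyclin of RNA splicing, rose by 0.97 (adjusted p = 1.2e-17) and by 1.01 without H/R replicate 1. Ccna2, the S-phase and mitotic cyclin, fell by 0.73 (adjusted p = 9.56e-17) and Ccnc, of the Mediator complex, by 0.63 (adjusted p = 8.18e-07). Shared exons make up 12.5% of the exon length of Ccna2, 7.37% of that of Ccnl1 and 5.4% of that of Ccnc.

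The S-phase E2F targets and the genes of G2 and mitosis were lower nearly throughout. Of 24 S-phase genes known as E2F targets, 0 rose, 23 fell and 1 (Pola1) did not pass, with a median log2 fold change of -0.62 against -0.01 over all tested genes. The largest falls by the naming rule were those of the thymidine kinase Tk1 (-1.46, adjusted p = 1.66e-18) and the replication licensing factor Cdc6 (-1.38, adjusted p = 8.33e-20). Of the 24 genes, 7 fell by at least 2-fold, and none of the 24 had a log2 fold change above -0.02. Fen1, which is 1 of the 7, shares 84.2% of its exon length with genes on the opposite strand. Gins2, which fell by less than 2-fold, shares 67.3%. The values of these genes may therefore not be theirs alone. Of 14 genes of G2 and mitosis, 12 fell, 0 rose and 2 (Cenpe and Cenpf) did not pass (median -0.56, highest -0.22), with Aurkb at -1.13 (adjusted p = 2.9e-17) and Kif20a at -0.93 (adjusted p = 6.6e-20). Kif20a shares 33.2% of its exon length with Cdc23 on the opposite strand. Control replicate 2 stood above the other Control libraries for Cenpe, at 4117 normalized counts against 2757 and 2642, and for Cenpf, at 4894 against 3195 and 3002. Without this library Cenpe passed the test as lower (log2 fold change -0.17). Mki67, which is among the 12 that fell, was also higher in Control replicate 2 (19225) than in the other Control libraries (14581 and 13996). It did not pass without H/R replicate 1 (log2 fold change -0.678). In bulk libraries fewer cells in a phase of the cycle and less message per cell cannot be told apart.

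Of 20 targets of p53 other than Cdkn1a, 13 rose, 3 fell and 4 did not pass, with a median of 0.9. Ccng1 is on this list and on that of the other cyclins, and did not pass. The kinase gene Plk2 rose most (log2 fold change 2.15, adjusted p = 9.42e-26), then Gadd45a, a stress-response gene of growth arrest (1.80, adjusted p = 8.65e-20), which shares 19.1% of its exon length with an opposite-strand gene. Cdkn1a, at 0.98, was near the median of these genes. Sesn1 fell by 1.07 (adjusted p = 4.28e-10) and Ei24 by 0.20 (adjusted p = 0.00127), so the targets did not move in one direction.

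**Figure D4:**
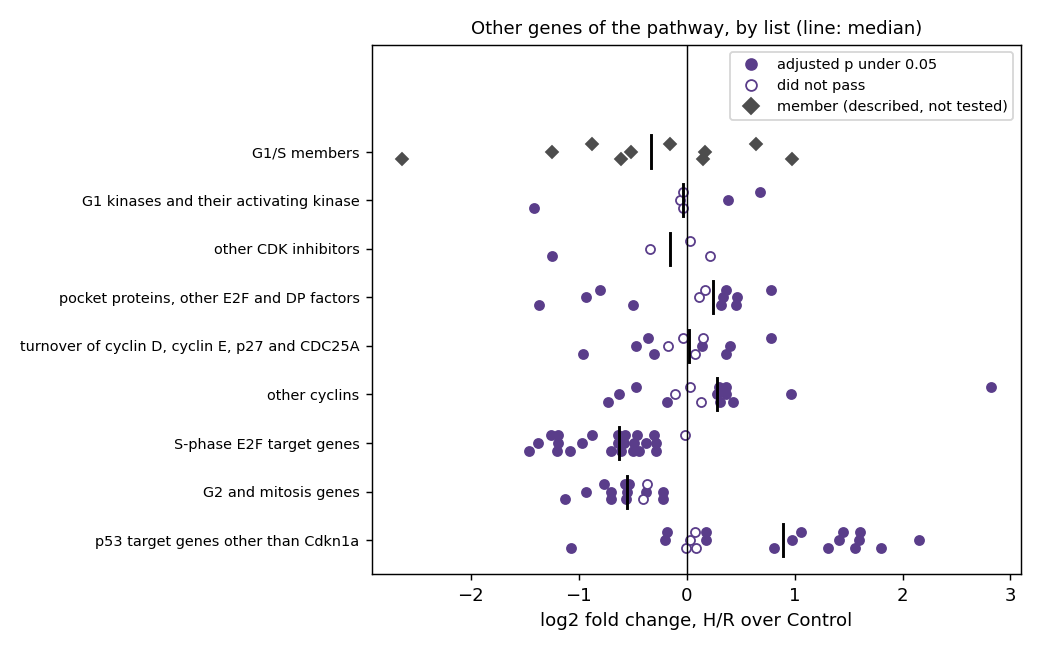
Log2 fold change of H/R over Control for the 10 genes (diamonds) and for the genes of 8 lists of the pathway (circles, filled where the adjusted p was under 0.05), with a line at each median. The S-phase genes lie at or below 0 with a median of -0.62, the p53 targets have a median of 0.9, and the other cyclins reach from -0.73 to 2.82.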

How the data were processed

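RNA was extracted with TRIzol and a stranded mRNA library was sequenced from each of 6 samples, 3 Control and 3 H/R. The submitters' processing notes name Trimmomatic 0.36, featureCounts, Subread 1.5.1, edgeR 3.12.1 and the build GRCm38 (mm10). The aligner is printed as STRA 2.5.3a in the study's methods, and the annotation release is not given in the sources used here. The deposited counts are whole numbers of reads for each gene, not normalized. The authors' RPKM values follow from count, gene length and library total (largest relative error 1.13e-06). Genes without a count in any library are not in the tables.

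The fit used edgeR 4.0.16 under R 4.3.3 (filterByExpr, TMM, robust quasi-likelihood fit, Benjamini-Hochberg over 14020 genes, no covariate), and the code was tested on simulated data. A gene was called at an adjusted p under 0.05 and a fold change of at least 2. Lower counts give less precise values, and Ccne1 in H/R and Ccnd2 had the fewest counts of the 10 genes.

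The 10 genes and all lists were chosen with earlier results of these data known. Named were the 10 genes; Cdk2, Cdk4, Cdk6, Rb1, Rbl1, Rbl2, Skp2 and Fbxw7; from each list the 2 genes with the largest rise and the 2 with the largest fall among those that passed with a mean of at least 50 normalized counts; and the 5 genes most like Ccne1. Partners that share exons, markers, genes that lost or gained a call, and E2f2, E2f3 and E2f7 were named after their values were seen. Alternatives were DESeq2 1.42.0, upper quartile scaling, library totals, other count filters, a non-robust fit, the replicate number as a block, limma 3.58.1 on log2 RPKM with a pseudocount of 1 or 0.1, and leaving out each library. Promoters came from RefSeq and 3′ UTRs from GENCODE M21.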

Additional observations from a re-analysis of the deposited data

How the results depend on the processing

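The log2 fold changes of the 10 genes and of the other genes named by the rule kept their sign under all 15 alternatives. That of Ccne1 ranged from -2.83 to -1.72 and that of Cdkn1a from 0.84 to 1.05. The number of genes called was 1195, 406 by limma on log2(RPKM + 1), and 1211 to 1290 when a library was left out. Of the called genes 596 were higher and 599 lower (49.9% higher), against 476 and 810 (37%) with library totals alone. Of the 10 genes, 2 were called, and 2 to 3 when a library was left out. Libraries of equal number did not deviate together (correlations -0.03, 0 and -0.01), so the numbers gave no pairing, and a fit with the replicate block called 1200 genes. In the pocket protein, E2F and DP list, 1 gene was called, and 2 with library totals or limma on log2(RPKM + 0.1). Of the turnover genes, 0 were called, and 1 with upper quartile scaling, library totals or limma on log2(RPKM + 0.1). In the G2 and mitosis list 1 was called, and 2 with upper quartile scaling, library totals or either limma fit. Of the p53 targets 10 were called, and 6 by limma on log2(RPKM + 1). Pmaip1, 1 of those lost, was also lost with library totals (log2 fold change 0.955) and upper quartile scaling (0.99). When a library was left out, the turnover genes called were 0 to 1, the other cyclins called 1 to 2, and the other CDK inhibitors at an adjusted p under 0.05 1 to 2. The cause of these differences was not tested. Cdk4 passed the threshold in 5 alternatives (log2 fold change -0.169 to -0.108).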
